A study of Mus musculus with 3 samples.

Results

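The 3 loci described here hold Klf2, Klf4 and Klf5, a trio of zinc-finger transcription factor genes of the Krüppel-like family, and the peaks are places where tagged Foxd3 was recovered around them in mouse embryonic stem cells. A peak was a member when it overlapped a fixed window around a gene on mm9: chromosome 8, 74740000 to 74950000 for Klf2, chromosome 4, 55440000 to 55650000 for Klf4, and chromosome 14, 99590000 to 99820000 for Klf5. This gave 13 of the 3406 peaks in the HA list and 12 of the 4569 peaks in the Flag list, which merge into 14 separate sites. The loci were selected on the listed peak positions, so counts and levels of peaks at these loci are given as descriptions, with no test.

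The cells were LF2 mouse embryonic stem cells into which a lentivirus had brought a Foxd3 gene carrying both a Flag and an HA epitope, selected with neomycin and kept without feeder cells in medium with 15% serum and LIF. Every sample of the series came from this single line, the input DNA included, and the tagged protein was made in addition to the cells' own Foxd3, at a level the submitters describe as close to it. Chromatin was precipitated once through each tag, with antibodies against HA or Flag, and 1 input was kept, so no difference between loci or antibodies has a replicate check. No library from cells lacking the tag was analysed here, and neither was the input. The lists hold positions only: a peak is listed or not, with a width in base pairs, and the read depth behind it is unknown. The lists carry no expression values, so the labelled cell type was not checked against marker genes.

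Foxd3 is a forkhead transcription factor of pluripotent cells and of the neural crest. Klf2, Klf4 and Klf5 help to hold embryonic stem cells in the naive state, the pluripotent condition of the early epiblast, and they can stand in for each other in large part. Klf4 is a target of the LIF and Stat3 pathway, and Klf2 protein is destabilised by Mek and Erk signalling. Their promoters and distal enhancers in embryonic stem cells are bound by several pluripotency factors, so the position of a peak relative to each gene was described first.

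No listed peak overlapped the body or the start of Klf2, Klf4 or Klf5. Peaks were sparse over the whole lists, at 1.31 HA and 1.75 Flag per Mb. The share of all genes without a listed peak was not computed, which leaves this absence without a comparison. The nearest site to a gene start lay about 3 kb upstream of Klf2, and the nearest at Klf5 and Klf4 lay about 22 and 54 kb away. Gene positions were available to the nearest kb only, so distances are rounded to that. The stretch of 250 bases before the start is shown for Klf2 and Klf4, the members present in the RefSeq promoter table, because neither list placed a peak there. Klf5 was not matched. Capitals mark the forkhead core TGTTTA or its reverse complement TAAACA, searched on both strands with no other motif.
Klf2: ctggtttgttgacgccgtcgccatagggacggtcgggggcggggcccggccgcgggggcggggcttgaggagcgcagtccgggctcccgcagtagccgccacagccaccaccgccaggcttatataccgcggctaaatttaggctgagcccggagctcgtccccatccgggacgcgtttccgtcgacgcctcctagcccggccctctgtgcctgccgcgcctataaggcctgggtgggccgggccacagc
Klf4: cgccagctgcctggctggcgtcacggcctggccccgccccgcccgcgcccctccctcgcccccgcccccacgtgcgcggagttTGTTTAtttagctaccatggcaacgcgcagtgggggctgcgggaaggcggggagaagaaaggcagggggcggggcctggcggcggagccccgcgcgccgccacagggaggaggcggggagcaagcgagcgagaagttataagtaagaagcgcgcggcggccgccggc
These are from RefSeq on GRCm38.p6, at chr8:72318812-72319061 on the plus strand for Klf2 and chr4:55532476-55532725 on the minus strand for Klf4, and those positions cannot be set beside the mm9 positions of the peaks. The Klf4 stretch held 1 match, whose first base lies 167 bases before the start, and the Klf2 stretch held 0. The motif occurred in 12.0% of the 32851 promoter stretches of the same length. Both stretches were rich in G and C, at 71.2% for Klf2 and 74.0% for Klf4, against a median of 52.4% over all promoters. The match at Klf4 is a run of letters without a listed peak, and the sequences under the distal peaks were not analysed here.

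**Figure D1:**
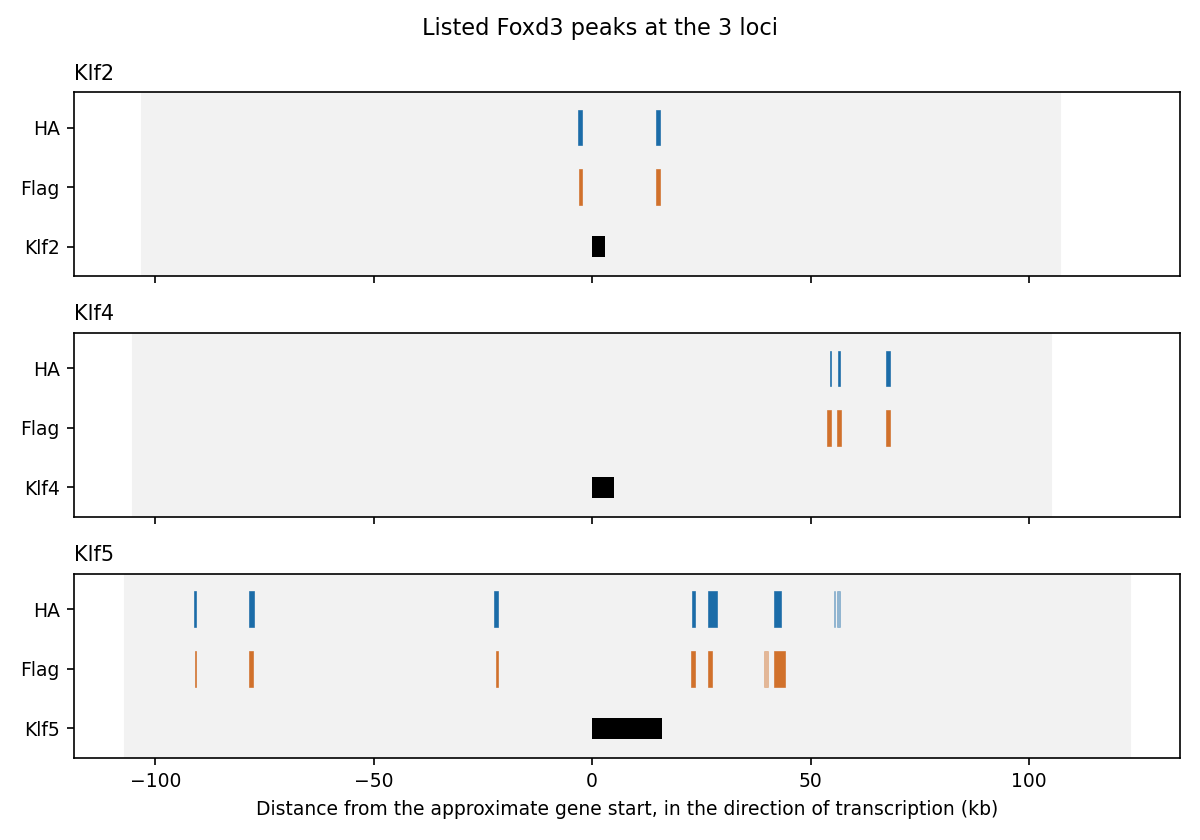
Listed peaks at Klf2, Klf4 and Klf5 by distance from the approximate gene start in kb, with positive values in the direction of transcription. Blue bars are HA peaks, orange bars Flag peaks, pale bars peaks present in 1 list only, black bars the genes and grey shading the window of each locus; sites flank Klf2 and Klf5, while the 3 sites at Klf4 all lie 54 to 68 kb downstream of its start.

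Klf2 had 2 sites, and both were in both lists. The upstream site, about 3 kb before the gene start, was an HA peak of 1004 bp (chromosome 8, 74839682 to 74840685) that contained a Flag peak of 730 bp. The downstream site lay about 15 kb after the start and 12 kb after the end of the gene, with an HA peak of 1105 bp (chromosome 8, 74857525 to 74858629) and a Flag peak of 1023 bp. Both HA widths were near the top of their list, wider than or equal to 92.4% and 95.1% of HA peaks. The Flag widths stood at the 80.4th and 93.8th percentile of the Flag list. The sites were 16839 bp apart, with the gene between them. The nearest protein-coding neighbours of Klf2 in the RefSeq gene table are Ap1m1, a clathrin adaptor subunit gene, and Eps15l1, an endocytosis gene.

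At Klf4 the 3 sites lay together on 1 side, downstream of the gene, within 14.4 kb of each other. All 3 were in both lists. The farthest site, about 68 kb past the gene start, had an HA peak of 783 bp (chromosome 4, 55476899 to 55477681) and a Flag peak of 758 bp. These covered nearly the same bases: the overlap was 95.8% of their combined span, a share higher than or equal to that of 97.7% of the 2474 HA and Flag pairs that overlapped 1 to 1 across the genome. The middle site, about 56 kb away, had an HA peak of 593 bp (chromosome 4, 55488156 to 55488748) inside a Flag peak of 935 bp. The nearest site, about 54 kb away, had an HA peak of 388 bp (chromosome 4, 55490256 to 55490643) inside a Flag peak of 1095 bp. That Flag peak was 2.82 times as wide as its HA partner, and only 0.970% of all such pairs were at least as unequal. At this nearest site the HA peak was as wide as or wider than 17.7% of its list, and the Flag peak than 95.3% of its own. No peak of either list was found in the Klf4 window upstream of the gene. Rad23b, a DNA repair gene, and Actl7b, an actin-like gene, are the nearest protein-coding neighbours in the RefSeq table.

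Klf5 carried 9 sites over 148 kb, of which 6 were in both lists, 2 in the HA list only and 1 in the Flag list only. Of these sites 3 lay upstream and 6 downstream. The upstream sites were spread out. The farthest, about 91 kb before the start, was narrow in both lists, with an HA peak of 434 bp (chromosome 14, 99605861 to 99606294) and a Flag peak of 290 bp. The next, about 78 kb before the start, had peaks of nearly equal width, 1051 bp in HA (chromosome 14, 99618492 to 99619542) and 1026 bp in Flag. The third, about 22 kb before the start, had an HA peak of 862 bp (chromosome 14, 99674549 to 99675410) and a Flag peak of 370 bp, and 2.02% of all pairs were at least as unequal in width.

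The downstream side of Klf5 held the widest peaks of the 3 loci. About 23 kb past the start, or 7 kb past the end of the gene, an HA peak of 747 bp (chromosome 14, 99719749 to 99720495) lay inside a Flag peak of 921 bp. The next site, 2766 bp farther on, held the widest peak of the whole HA list, at 2121 bp (chromosome 14, 99723451 to 99725571), whose Flag partner measured 1095 bp. The site about 43 kb past the start had the sixth widest Flag peak, at 2426 bp (chromosome 14, 99738655 to 99741080), around an HA peak of 1628 bp that ranked 19 in its list. The order of the antibodies was thus opposite at these neighbouring wide sites, with HA wider at the first and Flag wider at the second.

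The unshared peaks at Klf5 lay on this downstream side too. The Flag-only peak of 836 bp (chromosome 14, 99736377 to 99737212) was 1464 bp from the nearest HA peak, which belongs to the wide site at 43 kb. The HA-only peaks of 394 bp (chromosome 14, 99752297 to 99752690) and 703 bp (chromosome 14, 99752995 to 99753697) were 304 bp apart and about 55 and 56 kb past the gene start. Their nearest Flag peak was 11216 bp away for the first and 11914 bp for the second. Whether the other library had signal below its threshold at these sites was not tested. Pibf1, a centrosomal protein gene, and Klf12, a family member known as a repressor, are the nearest protein-coding neighbours of Klf5 in the RefSeq table.

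Set side by side, the loci differed in the number of listed peaks and in their side of the gene. The Klf5 window of 230 kb held 8 HA and 7 Flag peaks, the Klf4 window of 210 kb held 3 of each, and the Klf2 window of 210 kb held 2 of each. In the HA list this was 34.8 peaks per Mb at Klf5 (95% exact Poisson interval 15.0 to 68.5), 14.3 at Klf4 (2.95 to 41.7) and 9.52 at Klf2 (1.15 to 34.4). In the Flag list it was 30.4 at Klf5 (12.2 to 62.7), with the Klf4 and Klf2 values as in HA. The intervals cover counting error only, treat peaks as independent and do not account for the choice of the loci. Those of all 3 loci overlap, which is no test between them. Over the whole lists there were 1.31 HA and 1.75 Flag peaks per Mb.

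Peaks were sparse in windows of these lengths elsewhere. When chromosomes 1 to 19 and X were divided into windows of 210 kb, 16.7% of 12456 windows held a peak of both lists. At least 2 HA peaks, as at Klf2, were found in 4.95% of them and at least 2 Flag peaks in 7.80%. At least 3, as at Klf4, were found in 1.47% for HA and 2.43% for Flag. With windows of 230 kb, 18.0% of 11370 held a peak of both lists, at least 8 HA peaks were found in 4 windows (0.0352%) and at least 7 Flag peaks in 11 (0.0967%). The loci were chosen with their peaks known and their windows were centred near genes, so these shares describe how common such counts are and test nothing.

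Peaks were also counted in the neighbouring windows. The loci were chosen with their peaks known, so a fuller locus window was favoured by the choice and tests nothing. In the 10 windows of equal length around Klf4, 5 on either side, there were 2 HA and 2 Flag peaks in all, and 8 windows were empty in each list. Around Klf2 the 10 windows held 2 HA and 3 Flag peaks, with at most 1 in a window. Around Klf5 they held 6 HA and 6 Flag peaks, of which 2 HA and 3 Flag peaks lay in the adjoining window on the lower side and 2 of each in that on the higher side. Of the windows adjoining Klf4, the lower held 1 peak of each list and the higher none, and both windows adjoining Klf2 were empty.

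**Figure D2:**
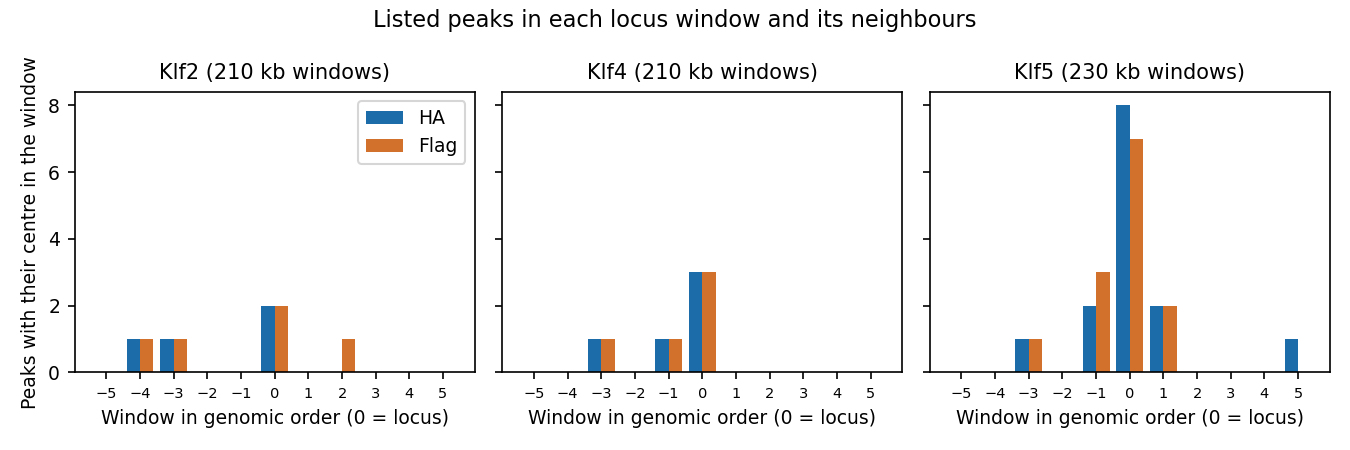
Number of listed peaks (vertical axis) with their centre in the window of each locus, at 0, and in 5 windows of equal length on either side, in genomic order; blue is HA and orange Flag. The locus windows, which were chosen with their peaks known, are the fullest, with 8 HA and 7 Flag peaks at Klf5, 3 of each at Klf4 and 2 of each at Klf2.

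The window edges did not divide a dense run of peaks. The nearest HA peak outside the Klf5 window lay 82.6 kb below it and another lay 89.0 kb above it, both shared with Flag, and the outermost HA peaks inside were 15.9 and 66.3 kb from its edges. At Klf4 the nearest HA peak outside was 120 kb below the window and 1245 kb above it, and the outermost inside were 36.9 and 159 kb from its edges. At Klf2 the nearest HA peaks outside were 511 and 1901 kb away, against 99.7 and 91.4 kb for those inside. In the Flag list the nearest peak above the Klf2 window was closer, at 229 kb, and was in that list only.

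By an overlap of at least 1 bp, sharing was complete at Klf2 and Klf4 and partial at Klf5. The 2 HA and 2 Flag peaks at Klf2 and the 3 of each list at Klf4 all overlapped a peak of the other list by at least 1 bp, against 73.3% of all HA peaks and 54.7% of all Flag peaks. With so few peaks the exact Clopper-Pearson 95% interval runs from 15.8% to 100% at Klf2 and from 29.2% to 100% at Klf4. At Klf5, 6 of 8 HA peaks (75.0%, 34.9 to 96.8) and 6 of 7 Flag peaks (85.7%, 42.1 to 99.6) were shared. The HA share at Klf5 was close to the 73.3% of the whole HA list, and all these intervals overlap. Over the 3 loci 11 of 13 HA peaks (84.6%, 54.6 to 98.1) and 11 of 12 Flag peaks (91.7%, 61.5 to 99.8) were shared. These intervals treat peaks as independent and do not account for the choice of the loci, so they are not a test against the whole lists.

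The lists were also compared by length. The bases covered in both lists were 81.7% of those covered in either at Klf2, 61.6% at Klf4 and 51.1% at Klf5. Over the whole lists the value was 39.4%. Within shared sites alone, the median overlap was 63.4% of the combined span at Klf4 and 66.9% at Klf5, so the order of these loci depends on the unshared peaks. A centre of the other list lay within 100 bp for both Klf2 peaks and 1 of the 3 Klf4 peaks in each list. At Klf5 this held for 3 of the 8 HA and 3 of the 7 Flag peaks. Over the whole lists it held for 55.6% of HA and 41.4% of Flag peaks. The Klf5 value includes 3 unshared peaks. It also includes shared sites with centres 292, 538 and 377 bp apart, at 22 kb upstream and 27 and 43 kb downstream. At Klf4 every peak was shared and 2 HA peaks were narrower than their Flag partners.

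Peaks at the 3 loci were mostly wider than the middle of their lists. In HA, 10 of the 13 exceeded the list median of 547 bp, with a median of 783 bp and a range of 388 to 2121 bp. In Flag, 10 of the 12 exceeded the list median of 490 bp, with a median of 928 bp and a range of 290 to 2426 bp. The peaks under their list's median were the site of Klf4 nearest the gene and the 91 kb and 55 kb sites of Klf5 in HA, and the 91 kb and 22 kb upstream sites of Klf5 in Flag. Only the site 91 kb upstream of Klf5 was below the median in both lists. Median widths by locus were 1054.5 bp at Klf2, 593 bp at Klf4 and 804.5 bp at Klf5 in HA, and 876.5, 935 and 921 bp in Flag. The order of the loci was therefore not the same with both antibodies.

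**Figure D3:**
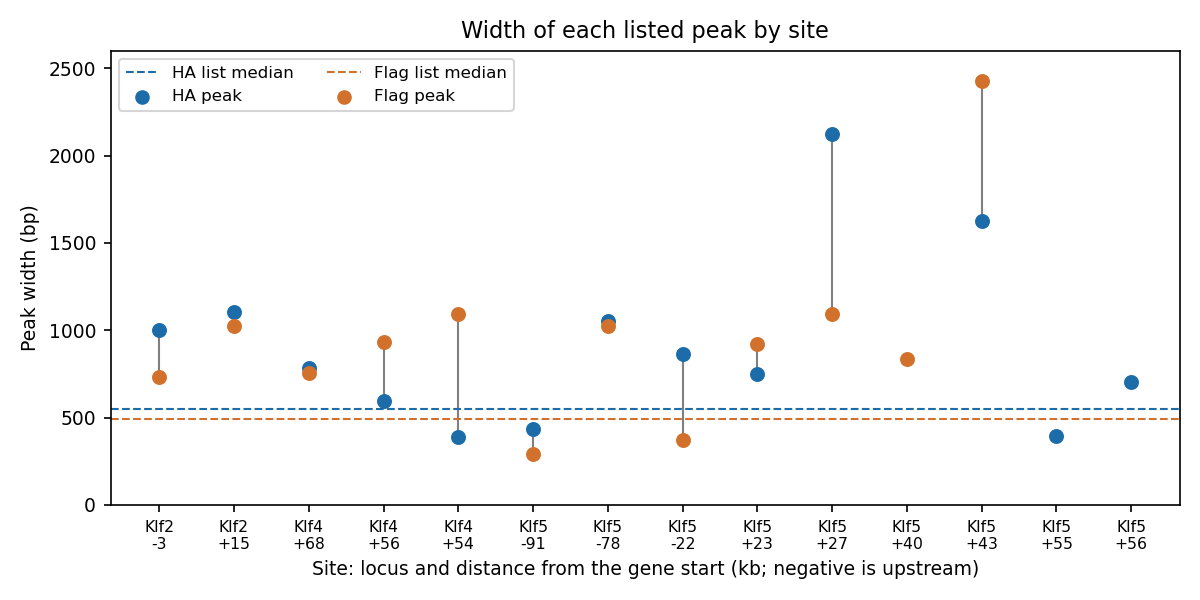
Width in bp of each listed peak at the 14 sites, labelled with the locus and the distance from the gene start in kb; blue points are HA, orange points Flag, grey lines join the peaks of a shared site and dashed lines are the medians of the whole lists. The widest points are the 2121 bp HA peak and the 2426 bp Flag peak downstream of Klf5, and HA was the wider at 7 shared sites and Flag at 4, against 1269 and 1200 of the 2474 pairs of the whole lists.

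At the 11 shared sites the closer edges of the lists were at most 66 bp apart, which is the largest value seen there, and 76.6% of all 2474 pairs had closer edges no farther apart than that. The median difference at this closer edge was 25 bp, against 32 bp over all pairs. At the opposite edge the median difference was 208 bp, against 109 bp over all pairs. The widest HA peak, downstream of Klf5, began 25 bp from its Flag partner and ended 1051 bp from it. The wide site at 43 kb began 22 bp apart and ended 776 bp apart, and the Klf4 site nearest the gene began 38 bp apart and ended 669 bp apart. At the site 22 kb upstream of Klf5 the ends matched within 46 bp and the starts differed by 538 bp.

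Opposite edges lay over 300 bp apart at 5 of the 11 sites, a threshold set after the values were seen, and in 10.8% of all pairs. Width went along with this difference, which is in part built in. The edge difference of overlapping peaks cannot exceed the width of the wider peak, and the pairs below were picked by that width. Among the 317 pairs of the whole lists whose wider peak was at least 1004 bp, the median of the wider peaks at the shared sites of the 3 loci, 52.4% had opposite edges over 300 bp apart. At the loci, 3 of the 6 sites of that width did. These were the Klf4 site nearest the gene and the Klf5 sites at 27 and 43 kb, while the Klf5 site 78 kb upstream and both Klf2 sites were under 300 bp. The exceptions in width were the middle site of Klf4 and the site 22 kb upstream of Klf5, whose opposite edges differed by 305 and 538 bp although no peak there reached 1004 bp.

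**Figure D4:**
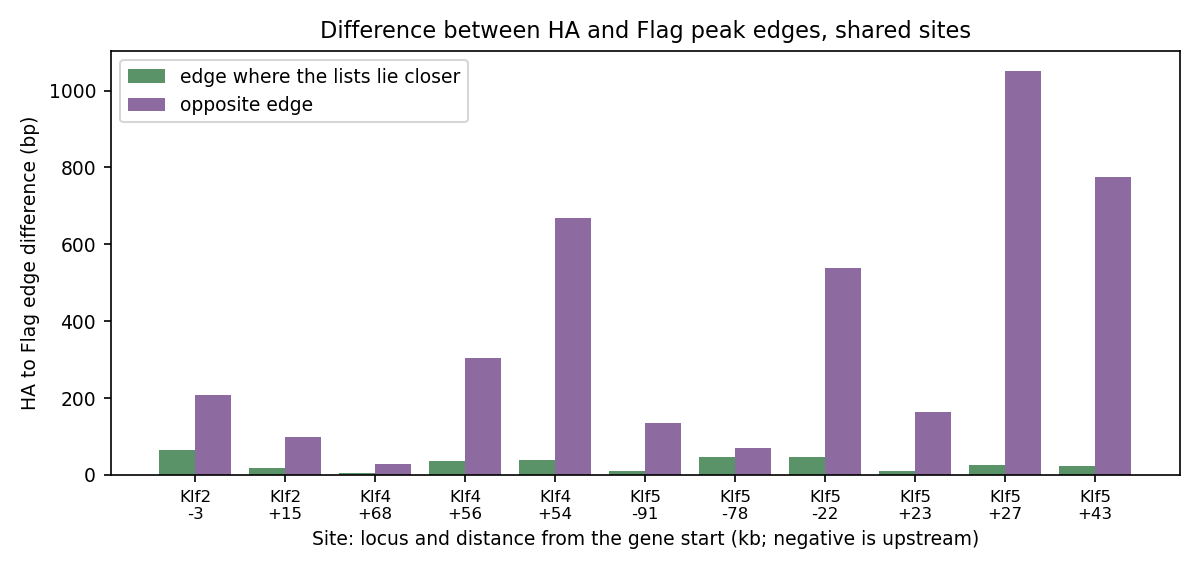
Distance in bp between the HA and Flag peak edges at the 11 shared sites, for the edge where the lists lie closer (green bars) and for the opposite edge (purple bars). The green bars stay at or below 66 bp, while the purple bars reach 1051 bp at the site 27 kb downstream of the Klf5 start.

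Linking peaks less than 12500 bp apart joined the 3 Klf4 peaks into a single group in each list, spanning 13.7 kb in HA and 14.4 kb in Flag. It was 1 of 34 HA groups and 1 of 48 Flag groups with 3 or more peaks, and 1 of the 16 groups in each list whose peaks were all shared. At Klf5 the grouping differed between lists at this distance, while linking under 25 kb made 3 groups in each list. The HA peaks made 4 units, among them a group of 3 peaks from 99738677 to 99753697 on chromosome 14, of which 1 was shared. The Flag peaks made 3 units, among them a group of 4 peaks from 99719739 to 99741080, of which 3 were shared. The Flag-only peak lay in the interval that separated the wide sites in the HA list. At Klf2 the peaks stayed single in both lists.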

How the data were processed

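The authors deposited 1 peak list for each antibody, with 3 columns (chromosome, start and end) and positions in base pairs on mm9, per the submitters' processing notes; the unit is other than a count or signal, since no height, fold, p-value or read number is given. How reads were aligned, how peaks were called and thresholded, and whether the input entered the calls is not given in the sources used here.

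Starts were turned into 1-based positions. A minimum overlap of 1 bp made a peak shared, and the whole-list counts equalled those of bedtools 2.31.1. The overlap code was tested on simulated data, where 500 of 500 planted overlaps were recovered. Widths, ranks and edges were compared over all peaks or over all pairs of 1 HA and 1 Flag peak. Chromosome length was taken as the largest listed peak end. Shares have exact Clopper-Pearson and densities exact Poisson 95% intervals, for counting error only. Approximate gene positions on mm9 came with the choice of the loci. Directions of Klf2 and Klf4 were checked against RefSeq on GRCm38.p6, and that of Klf5 is general knowledge.

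The members, windows and lists were chosen with earlier results of these data known. Every peak in the 3 windows is named. A planned count of peaks at other naive pluripotency and Klf family genes was not run, because it needs an annotation on mm9. Python 3.11.15, numpy 2.4.6, pandas 2.3.3, scipy 1.17.1 and matplotlib 3.10.9 were used.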

Additional observations from a re-analysis of the deposited data

How the results depend on the processing

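Of 72 counts recomputed with another overlap rule, window, subset of peaks or linking distance, 60 stayed within 1.5 times the reported count and 12 did not. With centres within 100 bp in place of any overlap, shared peaks were 1 in each list at Klf4 and 3 in each list at Klf5, while both at Klf2 stayed shared. When the overlap had to reach 50% of each peak, shared peaks in each list were 2 at Klf2, 2 at Klf4 and 5 at Klf5. The share of all HA and Flag peaks that meets this 50% rule was not computed, so these counts have no whole-list value beside them. Sharing of the 3 Klf4 peaks was complete by any overlap and incomplete by these stricter rules. Whether that loss is usual for the lists was not tested. With 50 kb on either side of the gene, Klf4 held 1 peak in each list. Its peak centres lay about 50, 52 and 63 kb from the gene's end in HA and 49, 51 and 63 kb in Flag. In the first 50% of the lines, Klf5 held 5 HA peaks in place of 8. Linking peaks under 25 kb made 1 group in each list at Klf2; linking under 5 kb made 2 groups in each list at Klf4 and 5 in the Flag list at Klf5. Leaving out a replicate was not possible. No paired analysis was possible because only 1 library was made with each antibody. Depth is unknown, so signal under the authors' threshold has no limit.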

Other observations

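The lists are not sorted by position, and what their order stands for is not stated. At Klf2 the HA peaks stood at lines 168 and 220 of 3406 and the Flag peaks at lines 602 and 520 of 4569. At Klf4 the site 68 kb from the gene start came first, at line 176 in HA and 228 in Flag, and the nearer sites followed at 1030 and 1339 in HA and at 1775 and 2116 in Flag. At Klf5 the earliest HA line was 187, for the site 78 kb upstream, and the wide sites at 43 and 27 kb were at 250 and 301. The earliest Flag lines at Klf5 were 443 and 453, for those same wide sites. The latest were 3073 for an HA-only peak, 3412 for the Flag-only peak and 4237 for the 290 bp Flag peak of the site 91 kb upstream. In all, 6 of the 13 HA peaks and 3 of the 12 Flag peaks were in the first 10% of lines.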
